A study of Mus musculus with 36 samples.

Results

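The genes described here are 36 names of type I interferon-stimulated genes, which were looked up by gene symbol in a liver RNA sequencing table of 38283 genes. The table held 35 of the 36 under these symbols, and all 35 passed the filter on low counts that left 13945 genes to test. The other name, Ifi27, was not matched by symbol. The gene that GENCODE M21 calls Ifi27 stands in the table as Ifi27l1 (ENSMUSG00000064215), and its values are given separately. The livers came from 36 male C57Bl/6J mice aged 16 weeks, with 6 animals in each of 6 groups. Wild-type mice and WT/Y657* mice were killed fed on chow, after 16 h of fasting, or after 16 h of fasting and 6 h of refeeding with chow. WT/Y657* mice are heterozygous for Y657*, a nonsense change at a tyrosine codon of Pik3r1, which encodes the p85α regulatory subunit of phosphoinositide 3-kinase, knocked in by homologous recombination so that all tissues carry it. A neomycin resistance cassette between LoxP sites entered the allele with the mutation, and its removal is not described in the sources used here. No further allele or agent is named for any group, and each library came from the liver of a single mouse.

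Type I interferons are secreted proteins that bind a shared receptor, IFNAR1 with IFNAR2, on most cells. The receptor's kinases JAK1 and TYK2 signal to the complex ISGF3, which holds STAT2 and IRF9, and ISGF3 binds the interferon-stimulated response element (ISRE) in the promoters of many genes. Their products sense viral RNA, block viral replication, attach the ubiquitin-like protein ISG15 to other proteins, or adjust the pathway itself. Many of these genes also have a low level without infection, which a tonic interferon signal helps to set, and in liver they are made by hepatocytes as well as by Kupffer cells, the resident macrophages.

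Total counts per mouse ranged from 8839488 to 19542775, with a median of 13596665.5. Pik3r1 itself was between 74.5 and 182 CPM in all mice, where CPM are counts relative to a library's total after TMM scaling. It was not called between genotypes in any state, and since the reads of both alleles are summed it does not check the genotype labels. The hepatocyte markers Alb, Ttr, Apoa1, Serpina1c and Cps1 together made up between 45850 and 87600 CPM in every mouse, as the tissue label says. The labels name each mouse by state (ALC for fed, ONF for fasted, RF6 for refed), genotype (WT or MT) and number, as in ONF_MT_827. The numbers fell into a lower, a middle and a higher series. All fed mice were of the middle series, so fed against fasted mice and the number series cannot be told apart. Fasted and refed groups each held 3 mice of the lower and 3 of the higher series.

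The promoters of these genes are shown first because the response element is the known route from interferon to the family. RefSeq promoter windows of the mouse build GRCm38.p6, 250 bases before to 50 after a start site, were found for 26 of the 35 genes. The core of the ISRE, GAAA and again GAAA with NN between them, was searched on both strands. It stood in 13 of 31 windows of these genes (41.9%) and in 1131 of 32851 windows of all genes (3.44%). The 13 windows belonged to 12 genes: Bst2, Ddx58, Eif2ak2, Ifih1, Ifit1, Ifit3, Isg15, Oas1a, Oas3, Rsad2, Stat2 and Trim30a, which has a match at each of 2 start sites. The letters TTCNNNGAA of the gamma-activated site (GAS), which read the same on both strands and can overlap the ISRE by neighbouring bases, were in 19.4% of these genes' windows and in 8.3% of all. A match of letters is a description and not a bound site. Stretches around the ISRE letters follow for 6 genes that differ in how they responded: Ifit1, Ifit3 and Rsad2, whose fasting response differed between genotypes, Isg15, which fell on fasting in WT/Y657* mice, Bst2, which fell on fasting in both genotypes, and Stat2, which rose on refeeding in both. Each is printed 5′ to 3′ on the strand of its gene, with the ISRE letters in capitals (TTTC, NN, TTTC where the element lies on the other strand).
Ifit1, chr19:34640755-34640843, plus strand: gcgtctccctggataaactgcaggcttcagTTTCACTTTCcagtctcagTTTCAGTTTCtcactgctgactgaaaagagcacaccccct
Ifit3, chr19:34583343-34583446, plus strand: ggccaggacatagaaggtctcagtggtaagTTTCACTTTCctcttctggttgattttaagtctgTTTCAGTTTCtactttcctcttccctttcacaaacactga
Rsad2, chr12:26456533-26456602, minus strand: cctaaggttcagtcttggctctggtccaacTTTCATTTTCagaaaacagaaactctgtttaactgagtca
Isg15, chr4:156200845-156200926, minus strand: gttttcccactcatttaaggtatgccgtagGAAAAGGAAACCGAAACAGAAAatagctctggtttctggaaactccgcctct
Bst2, chr8:71537557-71537632, minus strand: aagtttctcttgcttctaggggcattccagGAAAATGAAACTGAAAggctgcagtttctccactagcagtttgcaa
Stat2, chr10:128270248-128270315, plus strand: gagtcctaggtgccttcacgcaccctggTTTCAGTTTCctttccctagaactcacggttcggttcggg

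Counted from the start site, the 3 matches in Isg15 began at -78, -72 and -66 and overlapped in a single run, and the pair in Bst2 began at -130 and -124 and overlapped too. Ifit1 and Ifit3 held the same letters (TTTCACTTTC, then TTTCAGTTTC), at -104 and -85 in Ifit1 and further up at -156 and -122 in Ifit3. Rsad2 had 1 match, at -120, and Stat2 had 1, at -222. In Ddx58, Eif2ak2 and Ifih1 the match lay at or after the start site. Cmpk2, Ifit2, Irf7 and Irf9 were among the 14 genes with a window but no such letters in it.

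**Figure D1:**
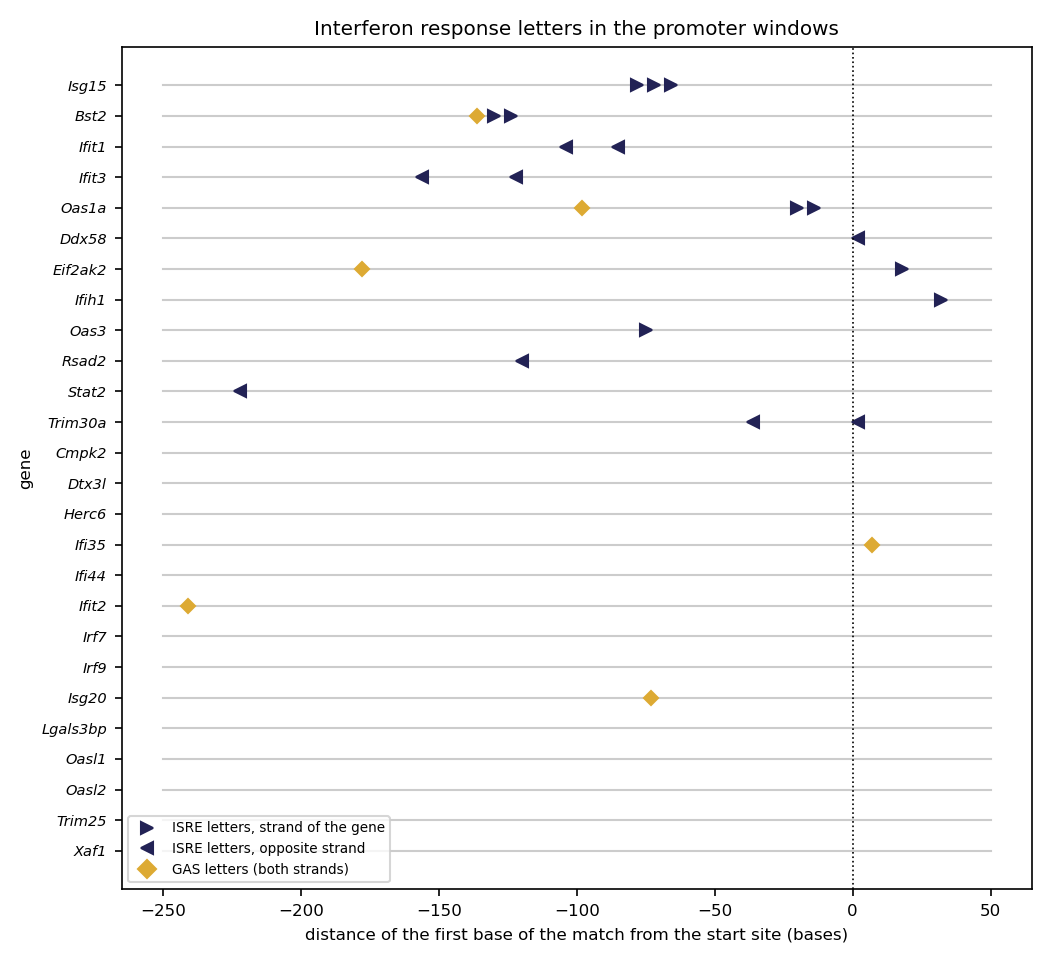
Position of the ISRE letters (triangles, pointing along the strand of the match) and GAS letters (diamonds) in the promoter windows of the 26 genes, in bases from the start site at 0; Trim30a combines 2 start sites. Matches of the ISRE letters lie in 12 genes, 8 of them upstream of the start site only and Trim30a on both sides of it.

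Per kilobase of exon, and averaged over the 6 groups, the levels of the 35 genes ran from 0.232 CPM for Oas3 to 92.9 CPM for Bst2, which encodes tetherin, a membrane protein that holds budding virions. Lgals3bp followed at 16.4 CPM per kilobase. Below it, Parp9, Trim25, Dtx3l and Ifi35 lay between 12.6 and 14.9. The median of all genes tested was 2.93 CPM per kilobase, and 13 of the 35 genes were under it. Oas2, Oas3, Oas1a, Oasl2, Mx1, Ifi44 and Isg20 were the lowest, each under 1 CPM per kilobase, and Mx1 had as few as 1 count in a mouse, so differences in these genes were hard to detect at this depth. Several genes lie side by side: Ifit1, Ifit2 and Ifit3 on chromosome 19, Rsad2 and Cmpk2 on chromosome 12, Oas1a, Oas2 and Oas3 on chromosome 5, and Parp14, Dtx3l and Parp9 on chromosome 16. Dtx3l and Parp9 overlap on opposite strands, and Parp9 also overlaps Gm15564, which averaged 1378 CPM. How strand was set in the counting is not given in the sources used here, so the counts of such pairs cannot be told apart with certainty, and the same holds for Rtp4 with Masp1 and Irf7 with Phrf1. Irf9 overlaps Rnf31, which averaged 17.8 CPM, on the same strand. No strand setting would separate reads of that overlap, which bears on each call of Irf9. Ifit3, Oas1a and Trim30a have near copies with which reads may be shared, which was not tested.

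The first comparison asked whether genotype set the level of these genes in the fasted liver, and there a part of them was lower in WT/Y657* mice. Of the 35 genes, 15 were lower and none was higher at an adjusted p under 0.05 by the quasi-likelihood test of edgeR (p adjusted after Benjamini and Hochberg), where 13.1% of all 13945 genes tested were called, 6.43% as higher and 6.63% as lower. The median log2 difference over the 35 genes was -0.44, against 0.0021 over all genes tested, and 30 of 35 were below 0. RNA was taken from whole liver, so fewer cells of a type and less RNA per cell cannot be told apart.

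Ifit1, whose protein binds foreign RNA caps and stops their translation, had the smallest p. Its lowest, median and highest levels were 10.02, 12.6 and 15.1 CPM in fasted wild-type mice and 3.63, 5.425 and 6.55 CPM in fasted WT/Y657* mice. The groups did not overlap, and the log2 difference was -1.27 ± 0.21 (standard error, n = 6 mice a group, edgeR adjusted p = 9.15e-05), a level 2.41-fold lower. Groups without overlap, with the mutant mice lower, were found in 5 of the 35 genes and in 2.48% of all genes tested. Besides Ifit1 these were Ifit3, Dhx58, Rtp4 and Dtx3l. Ifit3, which partners Ifit1, was at 6.44, 7.47 and 11.8 CPM (lowest, median, highest) in wild-type mice and 2.27, 3.79 and 5.54 CPM in WT/Y657* mice, a log2 difference of -1.11 ± 0.27 (edgeR adjusted p = 0.00601). Dhx58 encodes LGP2, an RNA sensor of the RIG-I family without signalling domains. It was at 10.45, 13.03 and 15.2 CPM in wild-type mice and 5.89, 7.62 and 8.98 CPM in WT/Y657* mice, so that even the highest mutant mouse was below the lowest control.

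The other 2 RIG-I-like sensors were lower too. Ddx58, which encodes RIG-I, differed by -0.43 ± 0.10 and Ifih1, which encodes MDA5, by -0.44 ± 0.13 on the log2 scale (edgeR adjusted p = 0.00492 and 0.0174). Zbp1, a sensor of Z-form nucleic acid, was not called. Of the transcription factors only Irf9 was called, at -0.50 ± 0.12 (edgeR adjusted p = 0.00404), with 5 of 6 WT/Y657* mice below all wild-type mice. Stat2, the partner of IRF9, was at 26.3, 34.3 and 42.2 CPM in wild-type mice and 29.5, 40.1 and 42.7 CPM in WT/Y657* mice, and the groups overlapped. Irf7, the factor that amplifies interferon production, was at 23.6, 28.8 and 41.8 CPM in wild-type mice and 13.3, 22.1 and 30.03 CPM in WT/Y657* mice, an overlapping difference of -0.45 ± 0.23 that did not pass the test (edgeR adjusted p = 0.202).

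Of the 14 antiviral effectors, 7 were lower. Beside Ifit1 and Ifit3 these were Oasl1 (-1.04 ± 0.22), Cmpk2 (-0.88 ± 0.21), Rsad2 (-0.78 ± 0.25), Ifit2 (-0.70 ± 0.24) and Eif2ak2 (-0.31 ± 0.09, the kinase PKR) in log2 units. Oasl1, which represses translation of Irf7, had 9.38, 12.9 and 16.1 CPM in wild-type mice and 3.93, 6.02 and 9.47 CPM in WT/Y657* mice, and 5 of 6 mutant mice lay below all controls. Rsad2 encodes viperin, an enzyme that makes a chain-terminating nucleotide, and Cmpk2 is the nucleotide kinase beside it in the genome. Rsad2 was at 23.8, 26.2 and 40.1 CPM in wild-type mice and 11.2, 14.1 and 27.01 CPM in WT/Y657* mice. Only 1 mutant mouse, ONF_MT_827, reached into the wild-type range. The calls of Rsad2 and Ifit2 were lost in 9 and 12 of 21 other settings, with adjusted p up to 0.101 and 0.0906.

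Among the genes of ISG15, ubiquitin and ADP-ribose transfer, Dtx3l (-0.50 ± 0.09) and Parp9 (-0.44 ± 0.09), which form a ubiquitin ligase complex, were lower in log2 units. Isg15 itself was at 3.31, 3.96 and 6.98 CPM in wild-type mice and 1.39, 2.99 and 3.58 CPM in WT/Y657* mice, a difference of -0.74 ± 0.28 that was not called (edgeR adjusted p = 0.0776). Usp18 removes ISG15 from proteins and binds IFNAR2 as a brake. It was at 8.32, 11.2 and 15.4 CPM in wild-type and at 4.23, 5.12 and 15.4 CPM in WT/Y657* mice, where mouse ONF_MT_827 alone stood above 6.32 CPM, and it was not called either (edgeR adjusted p = 0.0722). Of the remaining genes Rtp4 (-0.96 ± 0.20 in log2, edgeR adjusted p = 0.00145) and Lgals3bp (-0.36 ± 0.12, adjusted p = 0.0315) were lower, of which the call of Lgals3bp was lost in 9 of 21 other settings, with adjusted p up to 0.0964. Rtp4, a receptor-transporting protein, had 8.23 to 14.7 CPM in wild-type mice and 4.36 to 8.21 CPM in WT/Y657* mice.

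The fasted difference had the same direction in both number series. In mice of the lower series the median log2 difference over the 35 genes was -0.38, and in mice of the higher series it was -0.48 (3 mice of each genotype in each), with 32 of 35 genes lower in WT/Y657* mice in either series. Ifit1 differed by -1.25 in the first and -1.29 in the second series. With the series as a covariate 16 of the 35 genes were called, and the share of all genes called in that fit is not given here.

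**Figure D2:**
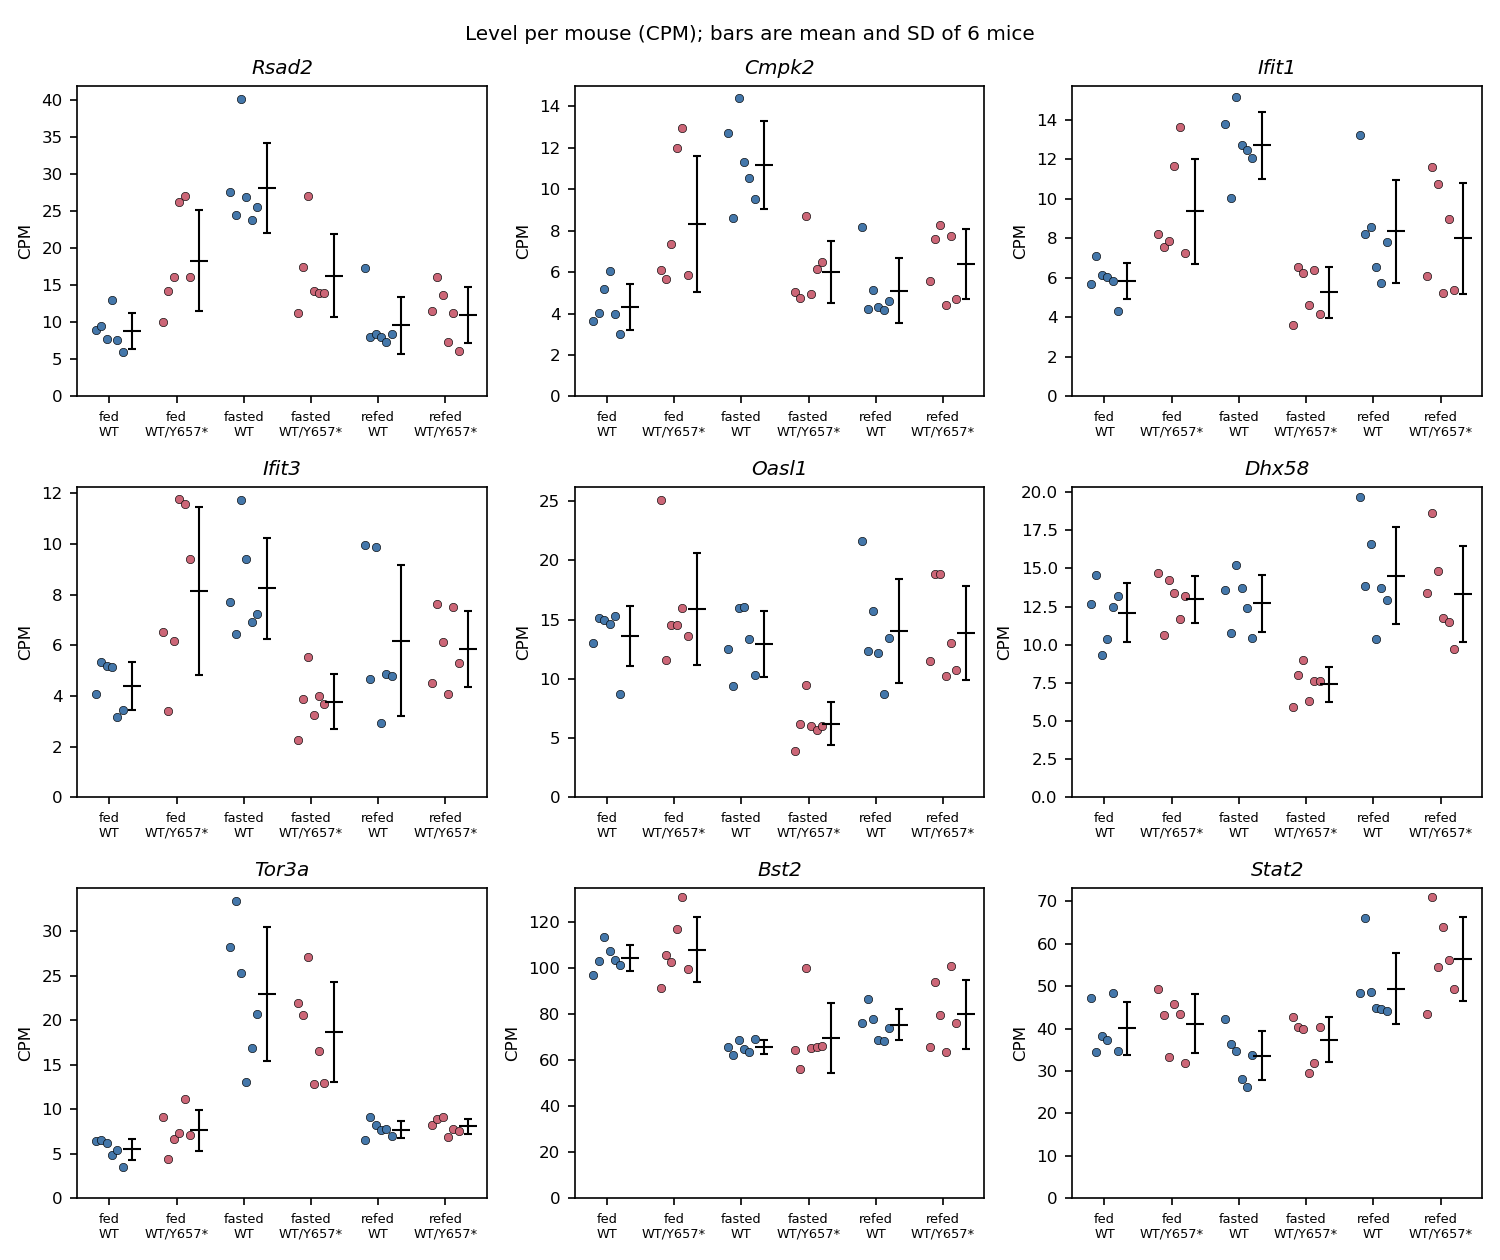
Level in CPM of 9 of the genes in each mouse (points; blue wild-type, red WT/Y657*), with mean and SD of the 6 mice beside them. The fasted WT/Y657* mice lie below the fasted wild-type mice in Ifit1, Ifit3 and Dhx58 without overlap, whereas Bst2 and Tor3a moved with fasting in both genotypes.

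The next comparisons asked how each genotype responded to fasting. In wild-type liver 10 of the 35 genes rose and 5 fell, where 32% of all genes tested were called, 14.5% as higher and 17.5% as lower. In WT/Y657* liver 1 rose and 13 fell, where 32.9% of all were called, 15.2% as higher and 17.7% as lower. The median log2 change over the 35 genes was 0.19 in controls and -0.45 in mutant mice, against 0.0101 and -0.0079 over all genes tested.

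Rsad2 rose most among the effectors in wild-type mice, from 5.93, 8.38 and 12.97 CPM (lowest, median, highest) when fed to the 23.8 to 40.1 CPM given above. Every fasted mouse was above every fed mouse, and the log2 change was 1.67 ± 0.26 (edgeR adjusted p = 7.22e-06), a 3.18-fold rise. Such a rise without overlap was seen in 9 of the 35 genes and in 7.85% of all genes tested. In WT/Y657* mice Rsad2 was at 10.1, 16.1 and 26.99 CPM when fed and 11.2, 14.1 and 27.01 CPM when fasted, a change of -0.17 ± 0.25 that was not called (edgeR adjusted p = 0.649). The fed and fasted ranges of the mutant mice nearly coincided. A fall on fasting without overlap was seen in WT/Y657* mice in 8 of the 35 genes and in 6.57% of all genes tested, among them Ddx58, Ifih1, Ifi35, Oasl1, Dhx58, Herc6 and Ifit1. Cmpk2 likewise rose in wild-type mice, by 1.37 ± 0.22 in log2, and in WT/Y657* mice its change of -0.46 did not pass.

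Ifit1 and Ifit3 rose in wild-type and fell in WT/Y657* mice. Ifit1 was at 4.31, 5.925 and 7.10 CPM in fed wild-type mice and at 7.25, 8.04 and 13.6 CPM in fed WT/Y657* mice. That fed difference was not called, and fed and fasted mice were different animals. The log2 change of Ifit1 was 1.12 ± 0.20 in controls and -0.84 ± 0.21 in mutant mice (edgeR adjusted p = 4.5e-05 and 0.00166). Its fed and fasted levels did not overlap in either genotype. Ifit3 changed by 0.90 ± 0.27 and -1.11 ± 0.27. Ifit2, Usp18, Irf9, Trim25 and Lgals3bp were called as higher in wild-type and not in WT/Y657* mice, with log2 changes of 0.33 to 0.91 in the former, and of these the genotype difference itself passed its test for Ifit2 and Irf9. The call of Lgals3bp was lost in 2 of 20 other settings, with adjusted p up to 0.0882.

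Some genes were called in the same direction in both genotypes. Bst2, Ddx58, Ifi35, Ifih1 and Parp14 fell in both, which is 5 of the 5 genes that fell in wild-type mice and 5 of the 13 that fell in WT/Y657* mice. The call of Parp14 in wild-type mice was lost in 9 of 20 other settings, with adjusted p up to 0.143. Bst2 fell from 97.2, 104 and 114 CPM to 62.2, 65.2 and 69.4 CPM in wild-type mice, and from 91.3, 104 and 131 CPM to 56.4, 65.6 and 100 CPM in WT/Y657* mice, where only mouse ONF_MT_827 reached the fed range. Its log2 change was -0.67 ± 0.11 in controls and -0.63 ± 0.10 in mutant mice. Tor3a, which encodes a torsin ATPase of the endoplasmic reticulum, was the one gene that rose in both. It went from 3.50, 5.84 and 6.54 CPM to 13.1, 23.02 and 33.4 CPM in wild-type mice, and from 4.39, 7.26 and 11.1 CPM to 12.8, 18.6 and 27.1 CPM in WT/Y657* mice, with no overlap in either genotype. Among the sensors, the log2 change of Ifih1 was -0.57 ± 0.12 in controls and -1.08 ± 0.13 in mutant mice, and that of Ddx58 -0.41 ± 0.10 and -0.89 ± 0.10. Their difference between genotypes passed its test for Ddx58 and not for Ifih1.

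Others were called in WT/Y657* mice and not in wild-type mice: Oasl1, Dhx58, Herc6, Rtp4, Isg15 and Eif2ak2 fell, and the difference between genotypes passed for Oasl1, Dhx58 and Rtp4. The log2 change of Oasl1 was -1.35 ± 0.22 (edgeR adjusted p = 1e-05), from 11.6, 14.5 and 25.1 CPM fed to 3.93, 6.02 and 9.47 CPM fasted. In wild-type mice its levels were 8.685, 14.8 and 15.3 CPM fed and 9.38, 12.9 and 16.1 CPM fasted, and the ranges overlapped. Isg15 was at 2.24, 3.74 and 4.18 CPM in fed wild-type mice and at 3.05, 4.79 and 7.39 CPM in fed WT/Y657* mice, of which the latter fell on fasting, with a log2 change of -0.89 ± 0.28 (edgeR adjusted p = 0.0125). Herc6, the ligase that attaches ISG15 in mice, changed by -0.98 ± 0.19.

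The difference between the genotypes' fasting responses was itself tested as an interaction. It passed in 10 of the 35 genes, all with a lower response in WT/Y657* mice, where 4.35% of all genes tested were called, 1.76% in this direction and 2.59% in the other. These were Ifit3 (-2.01 ± 0.38), Ifit1 (-1.96 ± 0.29), Rsad2 (-1.84 ± 0.36), Cmpk2 (-1.83 ± 0.31), Ifit2 (-1.45 ± 0.33), Rtp4 (-1.31 ± 0.28), Oasl1 (-1.27 ± 0.30), Dhx58 (-0.88 ± 0.20), Irf9 (-0.57 ± 0.17) and Ddx58 (-0.48 ± 0.15), in log2 units with standard errors. Adjusted p by edgeR ran from 0.000282 for Ifit1 to 0.0497 for Ddx58. The calls of Irf9 and Ddx58 were lost in 18 and 22 of 32 other settings, with adjusted p up to 0.0898 and 0.103. The other 8 were called in all 32, but none of these settings took mouse number as a covariate. Of the antiviral effectors 6 of 14 were called, of the sensors 2 of 4, of the transcription factors 1 of 3, and of the 8 genes of ISG15, ubiquitin and ADP-ribose transfer none. In Isg15, Irf7 and Ifih1 the difference had an unadjusted p under 0.01 but did not pass (edgeR adjusted p = 0.0589, 0.0924 and 0.0951). Mouse numbers of the fed mice nearly follow genotype, since 4 wild-type mice have lower and 3 WT/Y657* mice higher numbers than the rest, and this bears on every value that uses fed mice.

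**Figure D3:**
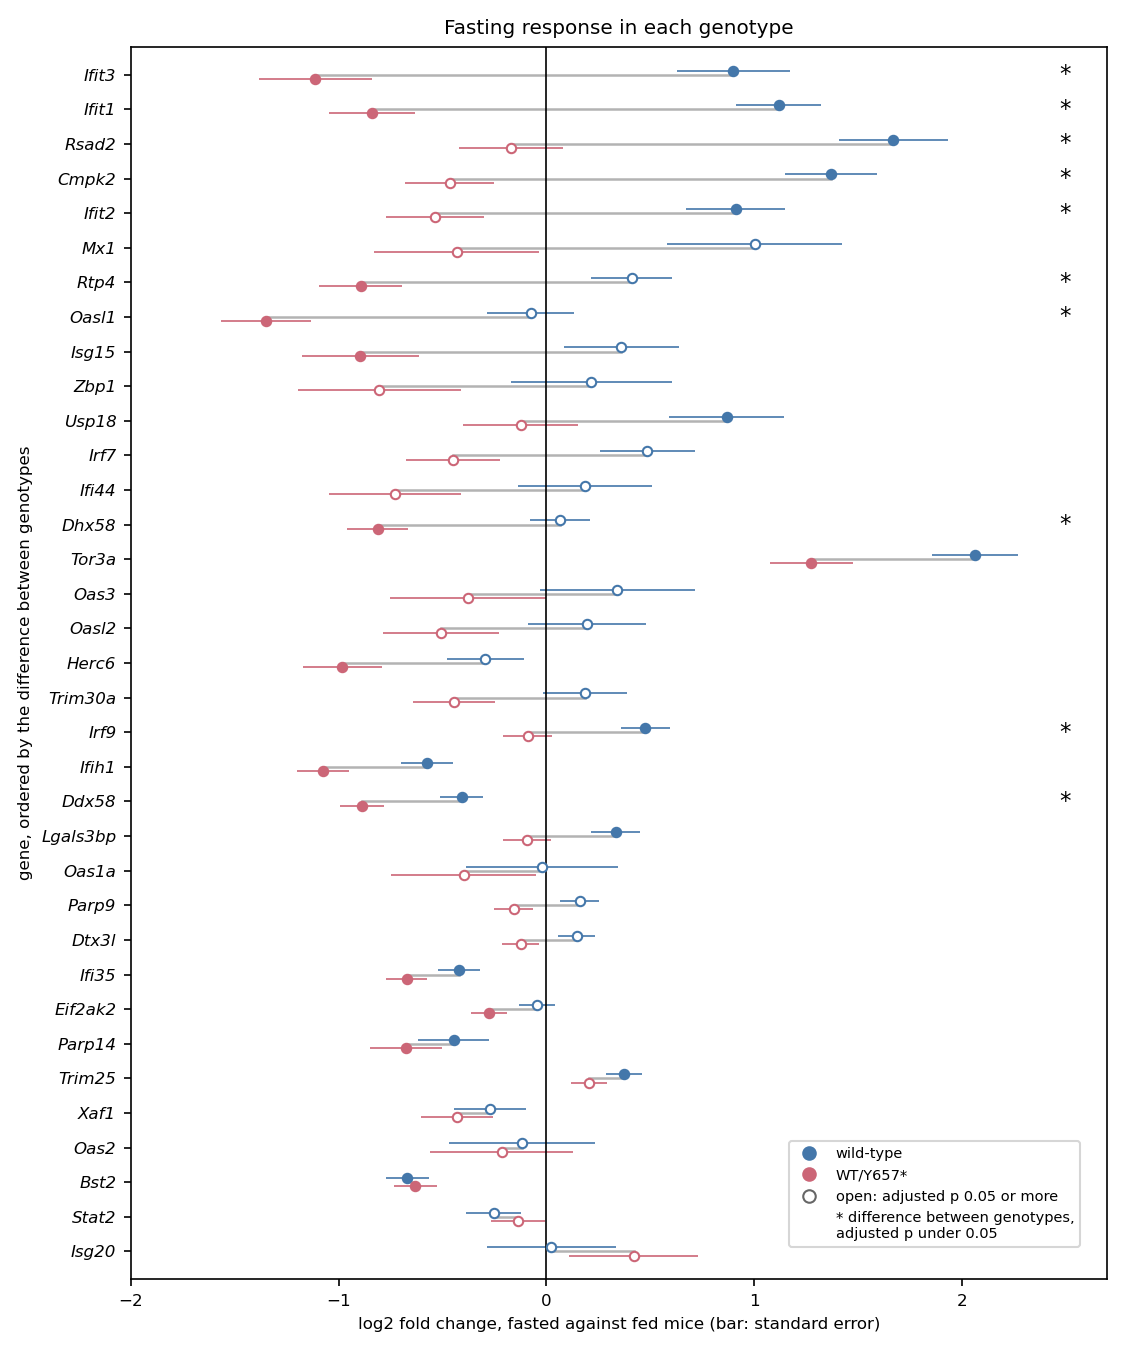
log2 fold change on fasting of each of the 35 genes in wild-type (blue) and WT/Y657* (red) mice, with standard errors, ordered by the difference between genotypes; filled points passed an adjusted p of 0.05 and stars mark the 10 genes whose difference between genotypes passed. From Ifit3 to Rtp4 the wild-type value is above 0 and the WT/Y657* value below it, while Bst2 lies below 0 in both.

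In the fed liver 2 of the 35 genes, Rsad2 and Cmpk2, were higher in WT/Y657* mice and none was lower, where 2.37% of all genes tested were called, 1.21% as higher and 1.15% as lower. The median log2 difference over the 35 genes was 0.18, and 29 of 35 were above 0. Rsad2 differed by 1.06 ± 0.26 and Cmpk2 by 0.95 ± 0.22 (edgeR adjusted p = 0.027 and 0.0169). For Rsad2, 5 of 6 mutant mice exceeded all wild-type mice. Cmpk2 was at 3.03, 4.01 and 6.04 CPM in wild-type mice and 5.65, 6.73 and 12.9 CPM in WT/Y657* mice, of which 4 exceeded all wild-type mice. Ifit1, with 6 of 6 mutant mice above all controls, was at an adjusted p of 0.0585 by edgeR and was not called. It was the only one of the 35 genes whose fed groups did not overlap with the mutant mice higher, where 0.495% of all genes tested did so.

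Irf7, Stat2, Usp18 and Isg15 were not called in the fed liver. Irf7 was at 17.7, 20.6 and 27.29 CPM in wild-type mice and 19.6, 26.9 and 42.3 CPM in WT/Y657* mice (0.49 ± 0.23 in log2, edgeR adjusted p = 0.258). Stat2 was at 34.4, 37.8 and 48.3 CPM in controls and 31.9, 43.3 and 49.4 CPM in mutant mice. Usp18 was at 4.73, 6.05 and 8.315 CPM in controls and 5.295, 7.30 and 10.01 CPM in mutant mice. The groups overlapped in all of these genes.

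Mice ALC_MT_866 and ALC_MT_868 were the highest of the fed WT/Y657* group in Rsad2 (26.2 and 26.99 CPM), Cmpk2, Ifit1 and Ifit3, and without either of them no gene of the 35 was called in the fed liver. No gene was called without wild-type mouse ALC_WT_847 either. Without ALC_WT_849, ALC_WT_856 or ALC_MT_869 1 gene was called, without ALC_MT_859 there were 4, and without ALC_MT_857 or ALC_MT_858 there were 5. A fit to the fed libraries alone called none, with 12 genes at an unadjusted p under 0.05. A fit with blocks of neighbouring mouse numbers called none, with 6 at that level. In the main fit 10 of the 35 genes and 2423 of all 13945 genes tested were at that level. The shares of all genes in the other fits are not given here, so their counts of 12 and 6 have no background beside them. Within the only block that holds both genotypes, 3 mutant and 2 wild-type mice in the middle, Rsad2 differed by 0.96 and Cmpk2 by 0.84 in log2. The median over the 35 genes was 0.12 there. Summed markers of Kupffer cells were also highest in ALC_MT_866 and ALC_MT_868 among the fed mice. The 5 of 6 listed markers in the table (Clec4f, Vsig4, Timd4, Cd5l and Marco) summed to 467 CPM in ALC_MT_866 and 559 CPM in ALC_MT_868, against 156 to 354 CPM in the other fed WT/Y657* mice and 167 to 234 CPM in fed wild-type mice. All 5 passed the filter on low counts and none was called between fed genotypes, where their median log2 difference was 0.94, and their part in the result was not tested. ALC_MT_859 and ALC_MT_869 had Kupffer sums of 349 and 354 CPM, also above all fed wild-type mice. Their means over the 35 genes, described below, were 0.03 and -0.04, within the fed wild-type range. ALC_MT_857 and ALC_MT_858 had sums of 156 and 164 CPM. In fasted liver the same sum was 193 to 364 CPM in wild-type mice and 201 to 341 CPM in WT/Y657* mice.

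In the refed liver none of the 35 genes was called between genotypes by edgeR, and DESeq2, the likelihood ratio test and limma-voom called none either. By edgeR, 2 of the 35 (Dtx3l and Lgals3bp) were at an unadjusted p under 0.05, as were 1329 of all 13945 genes tested. Of all genes tested 0.0287% were called, 0.0215% as higher and 0.00717% as lower. The median log2 difference over the 35 genes was 0.02. Ifit1 was at 5.75, 8.01 and 13.2 CPM in wild-type mice and 5.23, 7.54 and 11.6 CPM in WT/Y657* mice, a difference of -0.05 ± 0.20. Rsad2 was at 7.28, 8.23 and 17.4 CPM and 6.07, 11.4 and 16.1 CPM, a difference of 0.21 ± 0.26. Isg15 differed by -0.21 ± 0.26, Irf7 by -0.08 ± 0.23, Stat2 by 0.19 ± 0.13 and Usp18 by 0.02 ± 0.27 in log2. Oas3 had the next smallest p (-0.66 ± 0.40, edgeR adjusted p = 0.615). In each of these 7 genes the groups overlapped. The median over the 35 genes was -0.12 within the lower number series, where 27 of 35 were lower in WT/Y657* mice, and 0.16 within the higher, where 27 of 35 were higher.

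On refeeding, compared with the same fasted mice as above, 3 of the 35 genes rose and 8 fell in wild-type liver, where 30.2% of all genes tested were called, 16.5% as higher and 13.7% as lower. In WT/Y657* liver 13 rose and 2 fell, where 31.3% of all were called, 17.1% as higher and 14.2% as lower. Rsad2 fell in wild-type mice to the levels just given, all below the fasted mice, with a log2 change of -1.55 ± 0.26 (edgeR adjusted p = 2.35e-05), and Cmpk2 fell with one of -1.13 ± 0.22. Ifit1, Ifit2, Irf9 and Lgals3bp fell too, with log2 changes between -0.32 and -0.70. The call of Irf9 was lost in 8 of 21 other settings, with adjusted p up to 0.102, that of Ifit2 in 2 (0.0634) and that of Ifit1 in 1 (0.0566). In WT/Y657* mice Oasl1 rose by 1.15 ± 0.22, Dhx58 by 0.85 ± 0.15, Ifih1 by 0.76 ± 0.13 and Isg15 by 1.202 ± 0.28 in log2 (edgeR adjusted p = 0.000107, 2.1e-05, 1.43e-05 and 0.000949). Isg15 reached 4.30, 5.47 and 10.7 CPM there, above all fasted WT/Y657* mice. In 7 of the 35 genes all refed mutant mice exceeded all fasted ones, as in 6.96% of all genes tested. Herc6, Eif2ak2, Parp9, Ifit1, Rtp4 and Zbp1 also rose in WT/Y657* mice, of which the calls of Zbp1, Rtp4, Ifit1 and Parp9 were lost in 9, 8, 5 and 3 of 21 other settings, with adjusted p up to 0.172, 0.117, 0.0824 and 0.0548.

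Ddx58, Ifi35 and Stat2 rose on refeeding in both genotypes, which is 3 of 3 in wild-type mice and 3 of 13 in WT/Y657* mice. Stat2 went to 44.1, 46.6 and 66.1 CPM in wild-type mice and 43.4, 55.4 and 70.9 CPM in WT/Y657* mice, all above the fasted mice of the same genotype, with log2 changes of 0.56 ± 0.13 and 0.59 ± 0.13 (edgeR adjusted p = 0.00123 and 0.00056). Trim25, a ubiquitin ligase that activates RIG-I, and Tor3a fell in both. Trim25 went from 92.7, 115 and 123 CPM to 50.4, 55.6 and 59.4 CPM in wild-type mice and from 81.6, 92.5 and 111 CPM to 50.6, 57.5 and 73.8 CPM in WT/Y657* mice. The fasted and refed ranges were apart in both. The genotype difference in the refeeding response passed in Ifit1 (1.22 ± 0.29), Cmpk2 (1.21 ± 0.31) and Lgals3bp (0.65 ± 0.16), where 2.06% of all genes tested were called, 0.595% in this direction and 1.46% in the other. DESeq2 called 5 of the 35, and the number was 7 without ONF_MT_827, 5 without RF6_WT_815 or RF6_MT_899, and 1 without ONF_MT_806 or RF6_MT_814. The shares of all genes called in these fits are not given here.

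**Figure D4:**
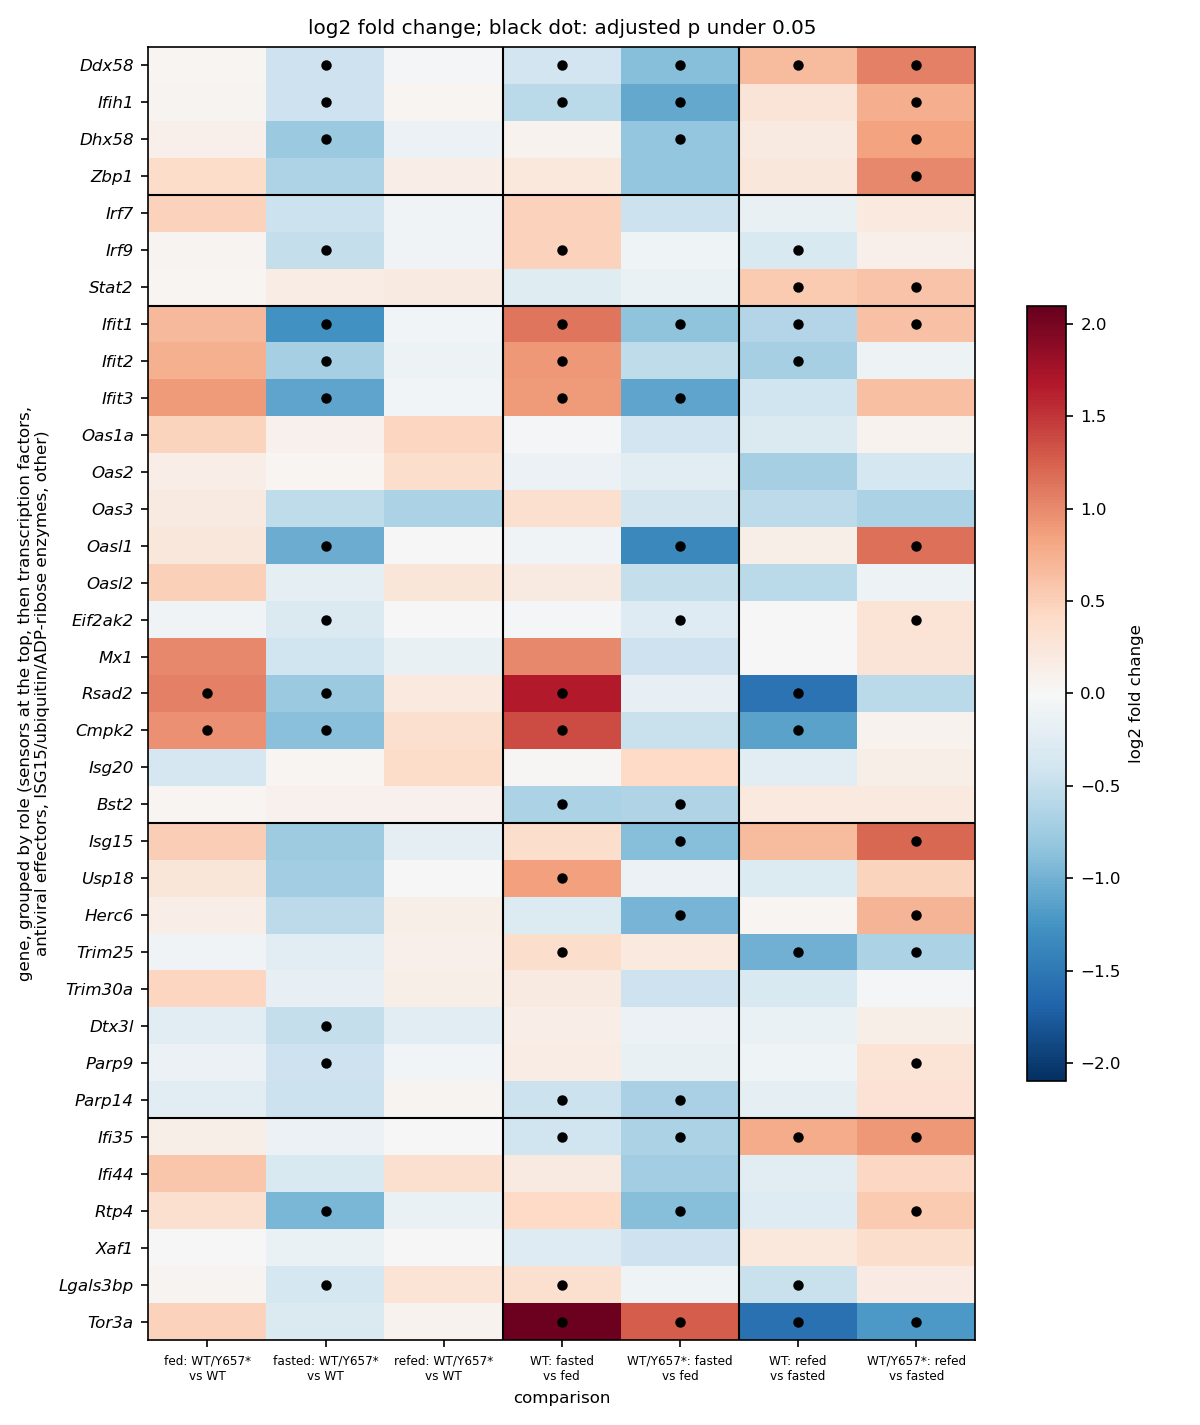
log2 fold change (colour) of the 35 genes, in rows by role, in the 3 comparisons of genotype and the 4 responses to fasting and refeeding; dots mark an adjusted p under 0.05. The fasted genotype column holds 15 dots, all on genes lower in WT/Y657* mice, the fed column holds 2 and the refed column none.

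The level of the family as a whole varied between mice of a group. Taken per mouse as the mean over the 35 genes of log2 CPM centred on each gene's mean, it was -0.29 to 0.03 in fed wild-type, -0.08 to 0.51 in fed WT/Y657*, 0.05 to 0.50 in fasted wild-type and -0.41 to 0.16 in fasted WT/Y657* mice. Among fasted WT/Y657* mice, 5 of 6 were at or below -0.21 and ONF_MT_827 stood apart at 0.16. Without that mouse the number of genes lower in fasted WT/Y657* liver was 17. It was 11 without ONF_MT_806 or the wild-type mouse ONF_WT_807, and the shares of all genes called in these fits are not given here. Refed mice spread widely in both genotypes, from -0.38 to 0.37 in wild-type and from -0.35 to 0.38 in WT/Y657* mice. In refed wild-type mice, the 3 of the lower number series (0.04, 0.27 and 0.37) were above the 3 of the higher series (-0.38, -0.29 and -0.20), and in 22 of 35 genes all of the former exceeded all of the latter. In refed WT/Y657* mice this held for 4 genes, in fasted wild-type mice for 11 and in fasted WT/Y657* mice for 3. The share of all genes tested that split in this way was not computed, so whether the split is particular to these genes was not tested.

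**Figure D5:**
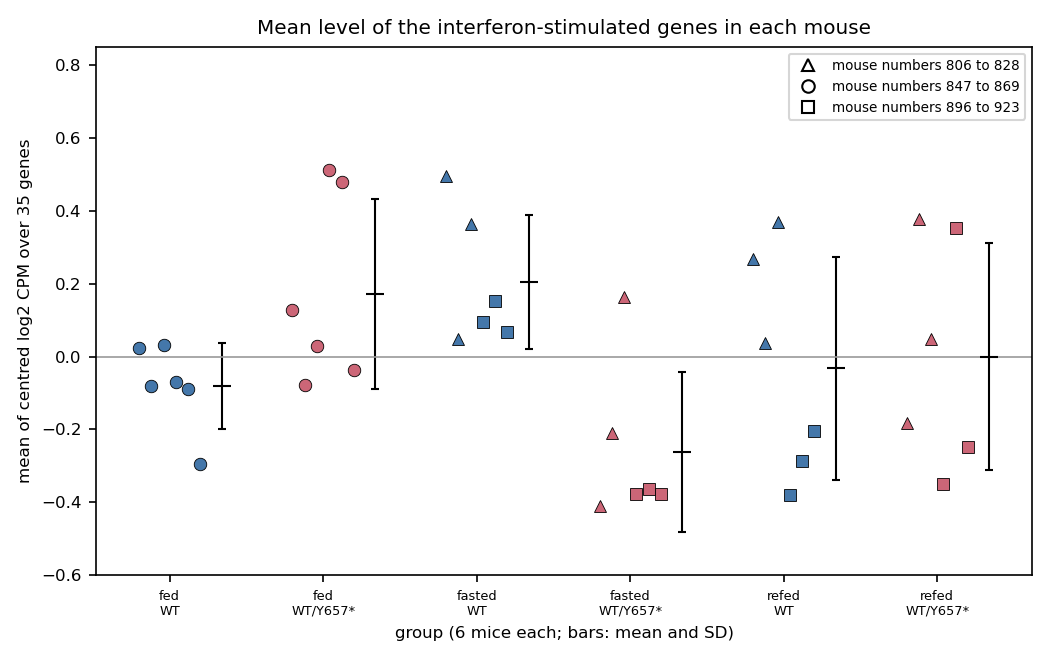
Mean over the 35 genes of log2 CPM centred on each gene's mean, per mouse, by group, with symbols for the series of mouse numbers and mean ± SD of 6 mice beside the points. Of the fasted WT/Y657* mice 5 lie at or below -0.21 and ONF_MT_827 lies at 0.16, ALC_MT_866 and ALC_MT_868 lie at about 0.5, and refed wild-type mice divide by number series.

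The 35 genes also varied together from mouse to mouse once group means were removed. Over 36 libraries the median correlation of a pair was 0.45, 96.5% of 595 pairs were positive, and the mean was 0.41 against 0.00108 over all pairs of genes tested. The genes share libraries and sequencing depth, and differences between the number series were not removed, so this is a description. Herc6, Zbp1, Irf7 and Ifit1 had the highest mean correlation with the others, from 0.52 to 0.54. Trim25 (0.042), Isg20 (0.13) and Stat2 (0.29) had the lowest together with Tor3a (0.29) and Mx1 (0.29).

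Ligands of the pathway were hardly detected. Of the interferon genes, 17 were in the table and none passed the filter. The highest count in any mouse was 5, for Ifnk, Ifna13 reached 4 and Ifng 3, and the summed level was at most 0.378 CPM. Ifnb1 and the other 13 had no count in any of the 36 mice. Ifnar1 and Ifnar2, the receptor chains, were not called between genotypes in any state. On fasting, Ifnar2 rose in both genotypes, with log2 changes of 0.44 ± 0.08 in controls and 0.28 ± 0.08 in mutant mice.

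Of 16 sensors and adaptors tested outside the 35 genes, Aim2 alone was called between genotypes, higher in fasted WT/Y657* liver by 0.82 ± 0.28, where 6.43% of all genes were higher. On fasting Ikbke, a kinase that activates interferon regulatory factors, fell in both genotypes, with log2 changes of -1.69 ± 0.20 in controls and -0.91 ± 0.19 in mutant mice. Irf5 fell likewise (-0.96 ± 0.17 and -1.07 ± 0.17). Of 14 genes that restrain the pathway, 1 was lower in fasted WT/Y657* liver, where 6.63% of all genes were, and none was called between genotypes when fed or refed. Of 7 close paralogues tested, Mx2 alone was called between genotypes in the fasted liver, at -0.51 ± 0.16. Ifi27l1 was at 54.0, 64.6 and 86.8 CPM in fasted wild-type and 40.2, 64.0 and 69.3 CPM in fasted WT/Y657* mice and was not called in any of the 9 comparisons.

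Of 37 other genes known to respond to interferon that were tested, 9 were lower and none higher in fasted WT/Y657* liver, where 6.63% of all genes were lower, among them Znfx1 (-0.43 ± 0.10), Parp10 (-0.36 ± 0.10), Apol9a (-0.80 ± 0.22) and Lgals9 (-0.27 ± 0.08). On fasting 6 fell and none rose in wild-type mice, where 17.5% of all genes fell, and 23 fell and none rose in WT/Y657* mice, where 17.7% fell. Ifitm3, which keeps viruses from leaving endosomes, fell in both, with log2 changes of -0.90 ± 0.16 and -1.32 ± 0.16. The genotype difference in the fasting response passed in 6, all lower in WT/Y657* mice, as it did for 1.76% of all genes. These genes were listed with earlier results of the data known, and the list's median in fasted liver was -0.24.

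The GTPases that defend against intracellular pathogens respond chiefly to interferon gamma. Of 17 tested, 4 were lower in fasted WT/Y657* liver (Irgm1, Irgm2, Gbp7 and Iigp1), as were 6.63% of all genes, and 3 were higher in fed WT/Y657* liver (Gbp5, Gbp4 and Gbp3, by 1.203 to 1.37 in log2), as were 1.21% of all genes. Their summed level was 537 to 775 CPM in fasted wild-type and 315 to 521 CPM in fasted WT/Y657* mice, without overlap. Iigp1 alone averaged 399 CPM in the former and 273.5 CPM in the latter, so most of the sum was this 1 gene. In the fed groups the sum was 470 to 608 and 433 to 1155 CPM. The 2 highest mutant mice were again ALC_MT_866 (825.6 CPM) and ALC_MT_868 (1155 CPM), while the other 4 lay between 433 and 524 CPM. The fasting response differed between genotypes in 7 of the 17, all lower in WT/Y657* mice, as in 1.76% of all genes, by -1.96 ± 0.43 for Gbp3 and -1.38 ± 0.33 for Gbp7.

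Markers of other blood and liver cells were mostly near the limit of detection. In fasted liver the summed plasmacytoid dendritic cell markers were at 0.999 to 2.33 CPM in controls and 1.31 to 2.87 CPM in mutant mice, T cell markers at 1.16 to 2.03 and 1.08 to 4.76 CPM, NK cell markers at 0.501 to 3.26 and 1.005 to 3.78 CPM, and B cell markers at 2.46 to 4.98 and 1.44 to 4.32 CPM. Monocyte markers were at 3.55 to 5.46 and 3.59 to 7.86 CPM, conventional dendritic cell markers at 2.595 to 5.35 and 3.01 to 6.65 CPM, cholangiocyte markers at 4.07 to 7.02 and 3.88 to 8.35 CPM, and sinusoidal endothelial markers at 193 to 220 and 188 to 231 CPM. Neutrophil markers (0.286 to 2.46 and 2.31 to 7.78 CPM) and stellate cell markers (324 to 385 and 353 to 513 CPM) had ranges that overlapped in part. Single markers called in the fasted liver were Lyve1 of endothelium (1.32 ± 0.39) and Dcn of stellate cells (0.42 ± 0.12), both higher in WT/Y657* mice. In the fed liver Gzma, Cd79b, Colec11 and Dcn were called as higher. On fasting the median log2 change of 4 B cell markers was 1.03 in controls and -0.16 in mutant mice, with Ms4a1 and Cd79b called as higher in the former, and the difference between genotypes passed for Ms4a1 (-2.79 ± 0.81). The median change of the 5 Kupffer cell markers was 0.47 in controls and -0.32 in mutant mice, and that of 2 NK cell markers 1.59 and 0.41, with Prf1 called in controls. The median differences between genotypes were -1.19, -0.81 and -1.18 in log2 for these 3 lists, and between -0.66 and 0.31 for the other 9. The part of these cells in the results was not tested.

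Across the 9 comparisons 25 of the 35 genes were called at least once. Ifi44, Irf7, Isg20, Mx1, Oas1a, Oas2, Oas3, Oasl2, Trim30a and Xaf1 were not called in any. Of these Irf7 ranged from 13.3 to 42.4 CPM over all mice. Oas1a, Oas2, Oas3, Oasl2, Mx1, Isg20 and Ifi44 were the 7 lowest genes per kilobase. Isg20, an exonuclease, was the one gene of the 35 whose response differed between genotypes by more than 0.3 in log2 in the opposite direction on fasting, at 0.40 ± 0.44, which its error covers.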

How the data were processed

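Livers of 36 mice were sequenced as stranded total RNA libraries with short single-end reads. The authors deposited estimated counts per gene and mouse, without normalisation. The labels name Cuffdiff for alignment, FeatureCount for counting and edgeR. Versions are not given in the sources used here. The processing notes list the build mm9, but 36301 of 36425 gene loci (99.66%) overlapped those of GENCODE M21 on GRCm38, which gave the positions. A second deposited table, of values fitted per group (36 columns), was not used.

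Counts were rounded (3.64% of non-zero values were not whole). In R 4.3.3, edgeR 4.0.16 kept 13945 genes with filterByExpr, scaled by TMM, and fitted glmQLFit (robust) with 1 coefficient per group across the 36 libraries (biological coefficient of variation 0.181). Contrasts were tested two-sided by glmQLFTest, with Benjamini-Hochberg adjustment over all genes tested and a threshold of 0.05. The standard error was the log2 change divided by the root of F. CPM used TMM, and log2 CPM for means over genes used a prior count of 2. Alternatives included limma 3.58.1 (voom), DESeq2 1.42.0, edgeR's likelihood ratio test, other scalings and filters, mouse number covariates, and each mouse left out. Mouse number covariates were used for the fed genotype effect and among fasted and refed mice, and not in comparisons of fasted with fed mice.

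The gene members and lists were chosen with earlier results of these data known. All 35 genes were accounted for. Each comparison names up to 6 called genes per direction by p, or else the 3 with the smallest p, with Rsad2, Ifit1, Isg15, Irf7, Stat2 and Usp18 in every state and up to 4 genes of each pathway list; further genes were named after their values were seen. Counts were also simulated from each gene's mean over all mice, with random genes changed in refed WT/Y657* mice. There the test recovered 160 of 199 changed genes (89% where log2 changes were 1.5, 71.7% where they were 0.75), with 4 false among 164 calls over 13771 genes. Genes were drawn independently and without a number series effect, so these rates need not hold for the 35 genes. Each library is 1 mouse, so errors are between mice. No pair in a group agreed within sampling noise. The list of receptor and signalling genes is not reported here in full.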

Additional observations from a re-analysis of the deposited data

Results flagged for a closer look

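Among 126 groups of 6 values (21 genes in 6 groups), 10 had a mouse whose gap to the next was large against the group's range by Dixon's criterion for 6 samples. The criterion's rate of about 1 in 20 is for independent, normally distributed values. These genes varied together and several of the 10 share a mouse, so that rate is no background for them. Rsad2 was at 40.1 CPM in fasted wild-type mouse ONF_WT_825, the next mouse being at 27.5 CPM. In refed wild-type mouse RF6_WT_815 Rsad2 was at 17.4 CPM (next 8.45), Cmpk2 at 8.20 CPM (next 5.15) and Ifit1 at 13.2 CPM (next 8.55). In fasted WT/Y657* mouse ONF_MT_827 Usp18 was at 15.4 CPM (next 6.32), Ifit2 at 6.95 CPM (next 4.63) and Bst2 at 100.1 CPM (next 66.2), and the mean over the 35 genes was 0.16 (next -0.21). Stat2 was at 66.1 CPM in refed wild-type mouse RF6_WT_816 (next 48.5). Oasl1 was at 8.685 CPM in fed wild-type mouse ALC_WT_860 (next 13.01) and at 25.1 CPM in fed WT/Y657* mouse ALC_MT_857 (next 15.98). ALC_WT_860 also had the lowest mean over the 35 genes of the fed wild-type group, at -0.29 (next -0.09).

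The genotypes differed in their response by a test of the difference itself in the following genes, in log2 units. On fasting the difference was -2.01 for Ifit3, -1.96 for Ifit1, -1.84 for Rsad2, -1.83 for Cmpk2, -1.45 for Ifit2, -1.31 for Rtp4, -1.27 for Oasl1, -0.88 for Dhx58, -0.57 for Irf9 and -0.48 for Ddx58. On refeeding it was 1.22 for Ifit1, 1.21 for Cmpk2 and 0.65 for Lgals3bp.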

How the results depend on the processing

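Counts of the 35 genes called stayed within 1.5 times the reported number under every setting in 7 of the 9 comparisons, and the direction of none of the 85 gene calls reversed. Of 726 values under other tools, scalings, filters, covariates and fewer libraries, 27 no longer passed the threshold, and of 1176 values with 1 mouse left out 119 did not. The fed genotype count of 2 became 5 with library size alone, 5 with DESeq2, 4 with the likelihood ratio test, 0 with the fed libraries alone and 0 with blocks of mouse numbers, and 0 to 5 with a mouse left out. With library size alone 756 of all 13945 genes tested were called there, 672 as higher, beside 330 and 169 in the main fit. The shares of all genes called in the other fits of this section are not given here. The refeeding difference count of 3 became 5 with DESeq2 and 1 to 7 with a mouse left out. With library size alone the median log2 difference of all genes in the fed comparison was 0.11, beside 0.0079 with TMM scaling, and that of the 35 genes was 0.29. With a mouse left out the counts were 11 to 17 for the fasted genotype effect, 0 for the refed, 13 to 15 and 14 to 18 for fasting in wild-type and WT/Y657* mice, 9 to 12 and 12 to 17 for refeeding, and 8 to 14 for the fasting difference. The cause was not tested. No paired analysis was possible because each mouse number occurs once. Low counts in the OAS genes, Mx1, Ifi44 and Isg20 limit what could be detected there.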
